A study of Anser cygnoides with 11 samples.

Results

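Urate carriers outside the SLC22 family, with the scaffold protein that anchors several of them, were examined in kidney of the swan goose (Anser cygnoides). They were chosen by symbol from a list of 10 genes: SLC2A9, ABCG2, ABCC2, ABCC4, SLC16A9, SLC17A3, SLC17A4, PDZK1, SLC5A8 and SLC47A1. Of these, 7 had 1 row each in the deposited table of 19275 rows, and SLC17A3, SLC17A4 and SLC47A1 had no row under that symbol. Poly(A) RNA had been sequenced from renal tissue of 5 goslings chosen for typical signs of visceral gout and matching serum findings, and of 6 healthy goslings, with 1 library each. The labels give no strain, sex, age or batch, so differences between the groups in these could not be examined, and no part of the kidney is named. In visceral gout, urate settles on the internal organs. The values are FPKM, fragments per kilobase of transcript and per 1000000 mapped fragments, so levels of different genes can be set side by side.

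Birds excrete most of their nitrogen as urate, and their proximal tubule secretes it from blood into the tubular fluid. Uptake on the blood side is the work of organic anion transporters, most of them of the SLC22 family. Exit on the fluid side is attributed to ATP-driven pumps (ABCC4 and ABCC2, also called MRP4 and MRP2, and ABCG2) and to voltage-driven anion carriers of the SLC17 family. SLC2A9 is a urate carrier of the hexose transporter family that returns urate to blood in mammals. SLC16A9 and SLC5A8 carry monocarboxylates, and in humans variants near SLC16A9 are associated with serum urate. PDZK1 (NHE-RF3) is a PDZ scaffold under the brush border that binds the tails of several of these carriers in mammals, and SLC47A1 (MATE1) exchanges organic cations for protons.

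Of 23 proximal tubule markers 17 had a row and all 17 were tested. This alone does not check the kidney label, since 8 hepatocyte and 12 endothelium markers were tested too. FPKM column totals ran from 229465 to 399990. The mean log2(FPKM + 1) of the 17 tubule markers was 4.46 ± 0.629 in control and 3.53 ± 0.518 in gout libraries (SD over 6 and 5 libraries), and an exact two-sided permutation test gave p = 0.0281. It was highest in control replicate 3 (5.37) and lowest in control replicate 2 (3.56) among controls, and highest in gout replicate 5 (4.40) among gout libraries. The mean over all 12252 tested rows was lower in gout as well. It was 3.12 ± 0.0916 in control and 2.83 ± 0.272 in gout libraries (exact two-sided permutation p = 0.0455). That is a difference of -0.29, beside -0.93 for the tubule markers. The markers did not move alike. Their log2 fold changes ran from -3.71 for GATM to 0.30 for AQP1, with a median of -0.64. Of the 17, 4 were called lower and 13 were not called. In tissue RNA a smaller number of tubule cells and less RNA per tubule cell cannot be told apart.

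In control kidney the scaffold PDZK1 was by far the most abundant of the 7, at 83.9 ± 54.5 FPKM, a level above that of 97.7% of all rows. ABCC2 followed at 15.5 ± 8.20 FPKM and SLC16A9 at 14.8 ± 8.98 FPKM. These neighbours in the order did not differ beyond their spread, since each was the higher of the pair in 3 of 6 libraries. SLC5A8 came next at 5.73 ± 2.25 FPKM and SLC2A9 at 3.91 ± 1.67 FPKM, and their means lay closer than the larger SD although SLC5A8 was higher in 5 of 6 libraries. ABCC4 stood at 0.861 ± 0.341 FPKM (SD, n = 6 throughout). ABCG2 was the least abundant, between 0.105 and 0.208 FPKM in the 6 control libraries. Each other step of this order held in 6 of 6 control libraries.

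In gout kidney the order by mean was the same, but fewer of its steps were clear. PDZK1 averaged 27.7 ± 17.4 FPKM and ABCC2 24.4 ± 35.5 FPKM, and PDZK1 was the higher in 3 of 5 libraries. SLC16A9 averaged 4.37 ± 2.63 FPKM and SLC5A8 4.11 ± 3.92 FPKM, and again the first was the higher in 3 of 5 libraries. SLC2A9 averaged 2.14 ± 1.71 FPKM and ABCC4 0.434 ± 0.144 FPKM (SD, n = 5 throughout), with SLC2A9 above ABCC4 in 5 of 5. PDZK1 made up between 50.2% and 72.6% of the summed FPKM of the 7 rows in control libraries, and between 12.7% and 67.5% in gout libraries, the lowest share being that of gout replicate 4.

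**Figure D1:**
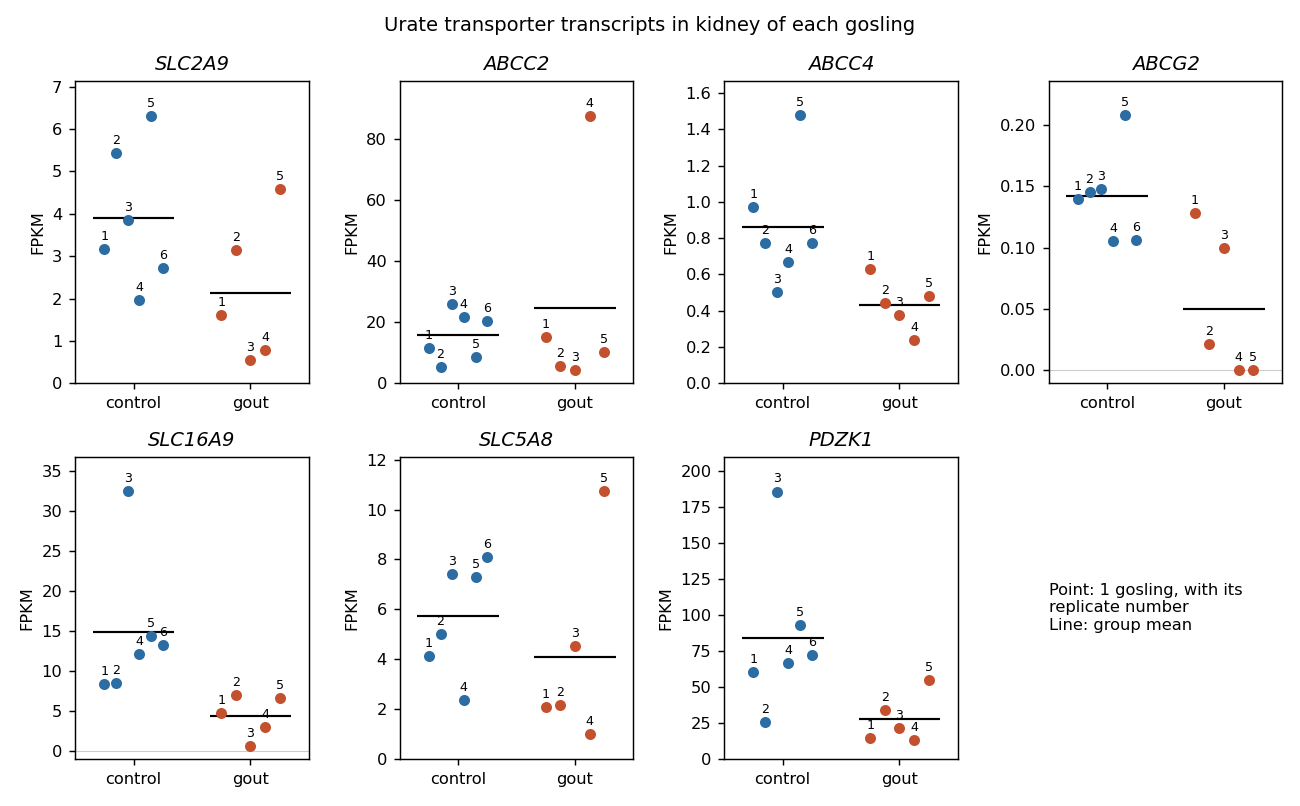
FPKM of the 7 urate transporter rows in each kidney library, with 6 control goslings in blue and 5 gout goslings in red, labelled by replicate number; horizontal lines are group means and each panel has its own linear axis. For SLC16A9 all 5 gout libraries lie below all 6 control libraries, and for ABCC2 gout replicate 4 stands at 87.4 FPKM while the other gout libraries lie between 4.05 and 14.9.

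The comparison of gout with control asks which of these transcripts differ in the diseased organ. The limma test on log2(FPKM + 1) took in rows with 1 FPKM or more in 5 or more of the libraries, which held for 5 of the 7 rows and not for ABCG2 and ABCC4. SLC16A9 was lower in gout, and it alone of the 5 passed (Benjamini-Hochberg adjusted p under 0.05 over 12252 rows). Of all tested rows 6.99% were called, 6.29% lower and 0.694% higher. After quantile normalization 0 of the 5 were called, against 3.84% of all rows (2.0% lower and 1.84% higher). The log2 fold change was negative for 5 of 5 members, as it was for 76.8% of all tested rows, and the median was -0.75 against -0.29 over all rows. Changes are to be read against that -0.29, which other scalings of the libraries move to between -0.21 and 0.01.

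SLC16A9, the monocarboxylate transporter MCT9, is a carnitine carrier in humans. It stood at 8.33, 8.54, 32.5, 12.1, 14.4 and 13.2 FPKM in control replicates 1 to 6 and at 4.74, 6.96, 0.588, 3.01 and 6.55 FPKM in gout replicates 1 to 5. The groups did not overlap, as in 4.55% of all tested rows for gout below control, and control replicate 3 was high and gout replicate 3 low within their groups. The difference was -1.62 on the log2 scale (SE 0.43, limma adjusted p = 0.0391), and the control mean was 3.39 times the gout mean. The exact two-sided permutation p over the 462 splits of the goslings was 0.00216, the smallest they allow, and 0.0591 after adjustment over all tested rows. The limma call rested on the setting: it was kept in 6 of 20 alternatives, with adjusted p from 0.0294 to 0.0945, and lost after quantile normalization (0.0918). Leaving out any of gout replicates 2 to 4 or of control replicates 3 to 6 also ended it (0.0509 to 0.0867). The row sums 4 transcripts, 1 of them assembled from these reads.

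PDZK1, the scaffold, differed by a similar amount without passing the test. It stood at 60.5, 25.4, 186, 66.9, 92.9 and 72.2 FPKM in the control replicates and at 14.4, 34.2, 21.1, 13.4 and 55.1 FPKM in the gout replicates. Control replicate 2 lay among the gout libraries and the other 5 controls lay above all of them, and control replicate 3 was the highest. The log2 fold change was -1.53 (SE 0.46, limma adjusted p = 0.0595), and the exact two-sided permutation p was 0.0238 unadjusted and 0.134 adjusted. Of all tested rows 23.6% had an unadjusted permutation p under 0.05 in that direction. The row was called without control replicate 2 (adjusted p = 0.0269) and without gout replicate 5 (0.0279), and in none of the other alternatives, which gave up to 0.154. Leaving out gout replicate 5 raised the calls over all 12252 tested rows from 856 to 1466. Without control replicate 3 the control mean was 63.6 FPKM.

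SLC5A8, the sodium-coupled monocarboxylate transporter SMCT1, stood at 4.13, 5.02, 7.43, 2.38, 7.31 and 8.10 FPKM in control and at 2.09, 2.16, 4.53, 1.01 and 10.7 FPKM in gout replicates. Gout replicates 1, 2 and 4 lay below every control library, and gout replicate 3 lay among the controls. Gout replicate 5 was the highest of all 11 libraries. Gout differed from control by -0.61 on the log2 scale (SE 0.41, 95% confidence interval -1.48 to 0.27, limma adjusted p = 0.349). Without gout replicate 5 the gout mean was 2.45 FPKM and the adjusted p 0.0721.

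SLC2A9, the urate and hexose carrier GLUT9, was measured at 3.17, 5.44, 3.86, 1.97, 6.32 and 2.71 FPKM in control and at 1.62, 3.15, 0.553, 0.788 and 4.59 FPKM in gout replicates. Gout replicates 1, 3 and 4 lay below every control library, and gout replicates 2 and 5 among the controls. The log2 fold change was -0.75 with a 95% confidence interval of -1.49 to -0.01, and the limma adjusted p of 0.181 did not pass in any of its alternatives (0.0610 to 0.431).

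ABCC2, a pump of the brush border for organic anion conjugates, had the largest coefficient of variation of the 7 rows among gout libraries, 145%. Its FPKM was 11.5, 5.28, 25.9, 21.6, 8.55 and 20.2 in control and 14.9, 5.45, 4.05, 87.4 and 10.2 in gout replicates. Gout replicate 4 was 3.38 times the next highest of the 11 libraries, while the other 4 gout libraries lay within or just below the control range. The log2 fold change was -0.08 with a 95% confidence interval of -1.43 to 1.28 (limma adjusted p = 0.948), so changes in either direction of more than 2-fold lie inside the interval. Gout replicate 4 decided the mean: without it the gout mean was 8.65 FPKM and the log2 fold change -0.74 (adjusted p = 0.324). The sign changed in 10 of 20 alternatives, among them each other scaling of the libraries.

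The 2 rows under the filter are pumps. ABCC4, which in chicken tubule cells carries urate into the fluid, was measured at 0.972, 0.772, 0.500, 0.667, 1.48 and 0.771 FPKM in control and at 0.631, 0.444, 0.373, 0.238 and 0.483 FPKM in gout replicates. All gout libraries lay below the control median, and 4 of 5 below the lowest control. The difference of -0.36 in mean log2(FPKM + 1) had an exact two-sided permutation p of 0.0130, unadjusted, and the limma fit without a filter gave adjusted p = 0.114. ABCG2 was listed at 0.140, 0.145, 0.148, 0.105, 0.208 and 0.107 FPKM in control replicates, at 0.128, 0.0216 and 0.0994 in gout replicates 1 to 3, and at 0 in gout replicates 4 and 5 (exact two-sided permutation p = 0.0108, unadjusted; adjusted p = 0.0898 in the limma fit without a filter). Among all rows under the filter with a value above 0, 10.6% met an unadjusted permutation p under 0.05 in that direction. Depth is unknown for these libraries, so no counting error can be given at such levels, and the pseudocount compresses these differences.

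**Figure D2:**
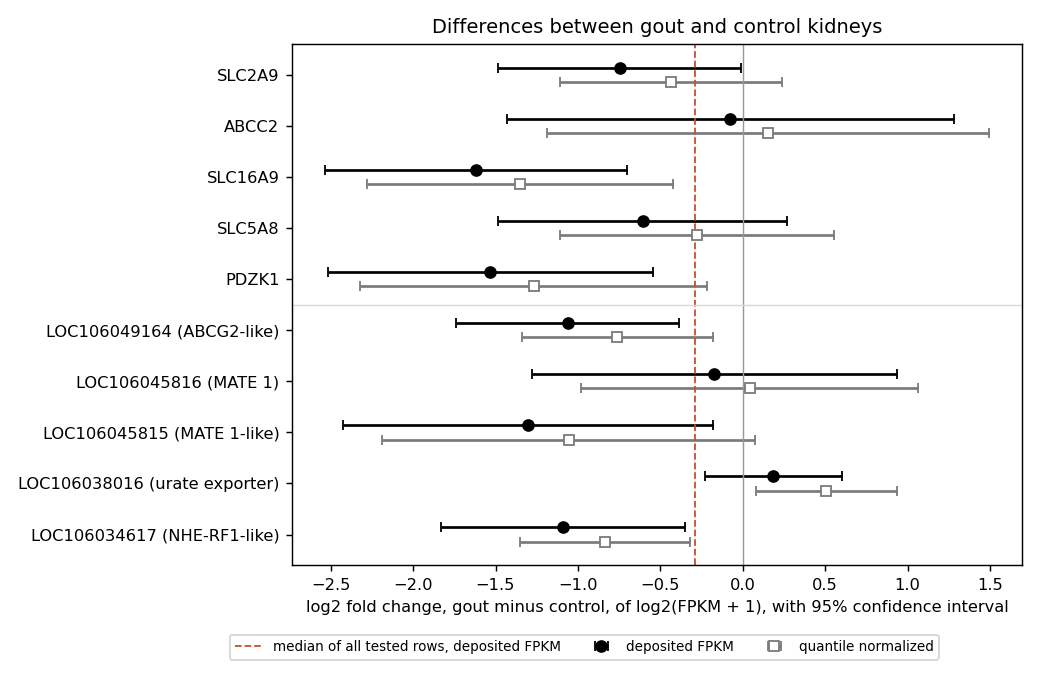
Log2 fold change of gout minus control on the log2(FPKM + 1) scale for the 5 tested members (above the line) and for 5 tested rows under LOC numbers (below it), with 95% confidence intervals from limma, unadjusted for the number of rows; filled circles are the deposited FPKM and open squares the quantile normalized values. SLC16A9 and PDZK1 lie farthest below the median of all rows at -0.29, and the interval of ABCC2 is the widest of the members.

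Some rows under LOC numbers have deposited descriptions that name a member or a relative of one. ABCG2 and SLC2A9 have rows of their own, and the LOC rows beside them are described only as like them. All these LOC rows were taken up after their values were seen. None of the 5 tested among them passed (limma adjusted p from 0.0573 to 0.850), beside 6.99% of all tested rows called. LOC106049164, described as ABCG2-like, was measured at 6.77, 5.49, 10.2, 5.03, 9.18 and 7.78 FPKM in control and at 2.48, 1.47, 2.21, 2.63 and 8.42 FPKM in gout replicates. Its control mean of 7.42 FPKM was 52.2 times that of the row named ABCG2. Gout replicates 1 to 4 lay below every control library and gout replicate 5 lay among them. The log2 fold change was -1.06 (SE 0.31, limma adjusted p = 0.0573), with 0.00786 without gout replicate 5 and up to 0.135 in the other alternatives.

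For SLC47A1 there were 2 rows described as multidrug and toxin extrusion protein 1, with 1 gene between them in RefSeq's gene order for the Taihu goose assembly. LOC106045815 was the more abundant in control, at 39.3 ± 20.5 FPKM against 16.3 ± 14.1 FPKM in gout kidneys (SD over 6 and 5 libraries), a log2 fold change of -1.30 with a limma adjusted p of 0.132. It was called in 2 of 20 alternatives, without gout replicate 5 (0.0424) and without control replicate 2 (0.0471). In the others its limma adjusted p ran up to 0.267. LOC106045816 was measured at 15.1 ± 4.41 FPKM in control, and at 15.5, 5.47, 4.19, 64.7 and 13.4 FPKM in gout replicates. Gout replicate 4, at 2.83 times the next highest library, was thus high for LOC106045816 and ABCC2 alike, and only 1.42% of all tested rows were at least 2 times as high in gout replicate 4 as in every other library. For SLC17A4, LOC106038016 is described as the probable small intestine urate exporter, and it stood at 1.95 ± 0.686 FPKM in control and 2.32 ± 0.502 FPKM in gout kidneys (log2 fold change 0.18, limma adjusted p = 0.556). A second row described as SLC2A9-like, LOC106030304, was at 0 in 10 of 11 libraries.

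LOC106034617, described as similar to the scaffold NHE-RF1, a relative of PDZK1, was abundant, at 94.0 ± 28.7 FPKM in control and 47.1 ± 26.4 FPKM in gout kidneys (SD over 6 and 5 libraries). The limma fit gave a log2 fold change of -1.09 with an adjusted p of 0.0679. All 5 gout libraries lay below the control median. This row was called in 1 of 20 alternatives, without gout replicate 5 (limma adjusted p = 0.0196). In the others its adjusted p ran up to 0.156. Without gout replicate 5, 1466 of the 12252 tested rows were called, against 856 with all goslings.

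The extremes of each group were also counted by library. Gout replicate 5 was the highest gout library for SLC2A9, SLC5A8 and PDZK1, 3 of the 5 tested members, and among all tested rows it was the highest gout library for 39.3%. Gout replicate 3 was the lowest for SLC2A9, ABCC2 and SLC16A9, which it was for 36.7% of all rows. Gout replicate 4 was the lowest for SLC5A8, PDZK1 and ABCC4, shared the lowest value of ABCG2 with gout replicate 5, and was the highest for ABCC2. It was the lowest gout library for 29.6% of all rows. Among controls, replicate 3 was the highest for ABCC2, SLC16A9 and PDZK1, while it was the highest control for 16.2% of all rows. Control replicate 3 and gout replicate 5 were also the libraries of their groups with the highest tubule markers. The coefficient of variation was larger in gout for SLC2A9 (79.7% against 42.7%), ABCC2 (145% against 52.8%) and SLC5A8 (95.6% against 39.2%), 3 of the 5 tested members, beside 80.7% of all rows. For SLC16A9 (60.3% against 60.5%) and PDZK1 (63.1% against 64.9%) it was slightly smaller in gout.

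**Figure D3:**
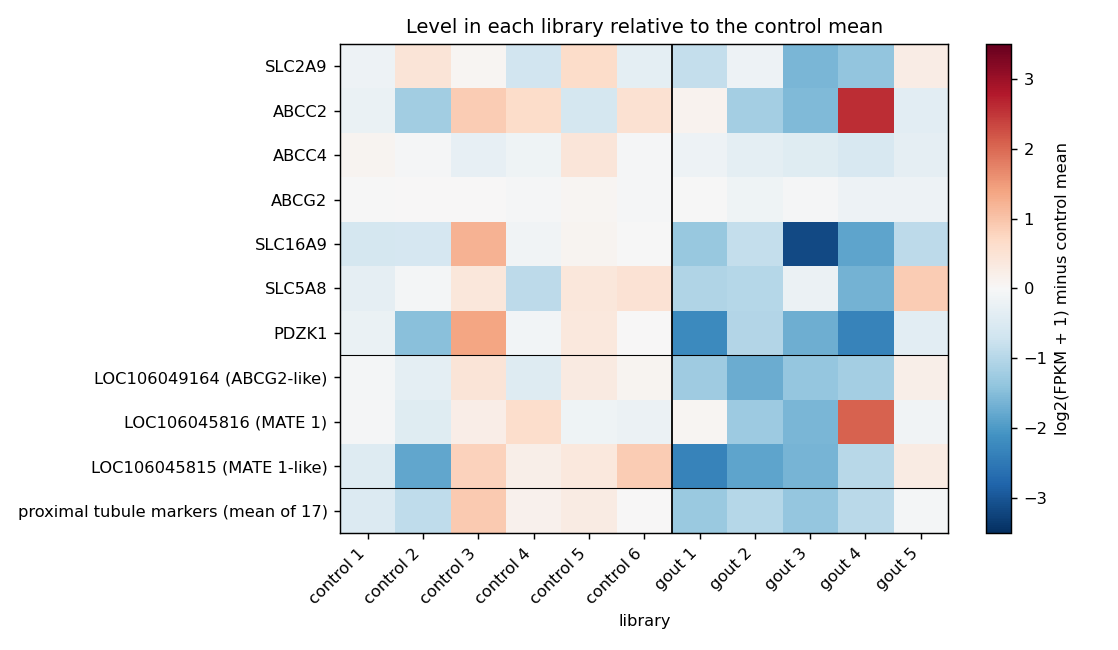
Level of each member, of 3 rows under LOC numbers and of the mean of 17 proximal tubule markers in each of the 11 libraries, as log2(FPKM + 1) minus the control mean (red higher, blue lower). Control replicate 3 and gout replicate 5 have the highest values of their groups in the tubule marker line, and gout replicate 4 is red for ABCC2 and LOC106045816 but blue for PDZK1 and SLC16A9.

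Each tested member was also set against the tubule markers of its own library, by subtracting their mean log2(FPKM + 1). SLC16A9 went from -0.62 ± 0.258 in control to -1.31 ± 0.796 in gout, a difference of -0.69, and PDZK1 from 1.71 ± 0.356 to 1.11 ± 0.548, a difference of -0.60 (SD over 6 and 5 libraries), with exact permutation p of 0.0693 and 0.0519. The marker mean itself differed by -0.93 between the groups, so the subtraction moves the difference of every row up by that amount. That both are smaller in size than the -1.62 and -1.53 of the FPKM scale follows from this shift alone. Neither passed. The other 3 tested members, negative on the FPKM scale, took a positive sign from the same shift, from 0.18 for SLC2A9 to 0.85 for ABCC2. None of the 3 had an exact permutation p under 0.05. ABCG2 and ABCC4 are left out here, since rows held near 0 by the pseudocount take their sign on this scale from the marker mean that is subtracted. On this scale 25.6% of all tested rows were higher in gout at an unadjusted permutation p under 0.05 and 0.588% lower. The PDZK1 difference had an unadjusted p under 0.05 in 2 of 15 alternatives. These were without gout replicate 2 (-0.75, exact permutation p = 0.0238) and without control replicate 2 (-0.71, exact permutation p = 0.0159). Over the 15 it ran from -0.75 to -0.41, with exact permutation p up to 0.124. For SLC16A9 this was so in 2 of 15, without gout replicate 1 (-0.86, exact permutation p = 0.0286) and without gout replicate 2 (-0.90, exact permutation p = 0.0238). Its difference ran from -0.90 to -0.40 over the 15, with exact permutation p up to 0.162.

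Other carriers were described by lists. Among 9 tested SLC16 carriers beside SLC16A9, 3 fell, 6 did not pass and 0 rose (6.29% of all rows were called lower and 0.694% higher), with a median log2 fold change of -1.02 against -0.29 over all rows. SLC16A7, the pyruvate and lactate carrier MCT2, fell from 21.0 ± 7.77 to 8.16 ± 4.09 FPKM (log2 fold change -1.35, limma adjusted p = 0.0397). SLC16A12, a creatine carrier in mammals, fell from 5.47 ± 2.26 to 2.06 ± 1.39 FPKM (adjusted p = 0.0403), and SLC16A4 from 33.2 ± 14.6 to 11.7 ± 11.8 FPKM (adjusted p = 0.0461), where the gout mean without replicate 5 was 6.54 FPKM. After quantile normalization 0 of the 9 were called, against 3.84% of all rows.

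The list of other urate and organic anion carriers held 13 symbols, of which 4 were in the table and 3 were tested. Of these 3, 2 fell, SLC22A7 and the cation carrier SLC22A2, beside 6.29% of all rows. The anion exchanger SLC22A7 fell from 46.0 ± 21.1 to 8.50 ± 5.42 FPKM (limma adjusted p = 0.00510), and the organic cation carrier SLC22A2 from 15.3 ± 9.11 to 3.49 ± 3.90 FPKM (adjusted p = 0.0323; gout mean 2.01 without replicate 5). After quantile normalization SLC22A7 was called (0.0206) and SLC22A2 was not (0.0854). SLC22A2 was also the 1 called of 2 tested MATE and organic cation carriers. None of the 7 tested SLC2 carriers or the 9 tested ABCC and ABCB pumps passed, beside 6.99% of all tested rows called. Nor did any of the 5 tested SLC5 cotransporters or the single tested ABCG and SLC17 relatives. The smallest p in these lists belonged to ABCC9, a regulatory subunit of potassium channels, at 2.06 ± 1.29 FPKM in control and 4.90 ± 1.55 FPKM in gout (log2 fold change 1.02, limma adjusted p = 0.0562, and 0.0366 after quantile normalization). In the SLC2 list it was SLC2A8 (adjusted p = 0.110), in the SLC5 list SLC5A10 (0.416), and ABCG4 and SLC17A5 were the single tested relatives (0.996 and 0.851).

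Scaffold partners and driving pumps moved in part. Of 6 tested PDZ scaffolds and partners, 2 fell, MSN and SLC9A3R2, beside 6.29% of all rows. MSN, moesin, which ties membrane proteins to actin, fell from 47.2 ± 14.5 to 22.02 ± 3.26 FPKM (log2 fold change -1.02, limma adjusted p = 0.0229). SLC9A3R2, the scaffold NHE-RF2, fell from 7.27 ± 3.10 to 3.08 ± 0.738 FPKM (adjusted p = 0.0446). Neither was called after quantile normalization (0.0912 and 0.226). Of 9 tested sodium and proton pumps and exchangers, 2 fell, beside the same 6.29%. ATP1B1, the beta subunit of the sodium pump, fell from 158 ± 60.7 to 50.1 ± 28.2 FPKM (log2 fold change -1.66, adjusted p = 0.0230). SLC4A4, the sodium bicarbonate cotransporter, fell from 21.4 ± 9.48 to 6.62 ± 4.31 FPKM (adjusted p = 0.0396). After quantile normalization 0 of these 9 were called, against 3.84% of all rows.

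Of 13 tested transcription factors of tubular transporter genes 0 passed limma, beside 6.99% of all tested rows called. Their median log2 fold change was -0.45. HNF4A, a nuclear receptor of hepatocytes and proximal tubule, stood at 25.96 ± 7.64 FPKM in control and 25.1 ± 9.68 FPKM in gout (adjusted p = 0.848). Of the 17 proximal tubule markers 4 fell and 0 rose, against 6.29% and 0.694% of all rows. These were GATM (log2 fold change -3.71), SLC6A19 (-2.85), SLC4A4 (-1.71) and ANPEP (-1.44), and the first 2 were also called after quantile normalization. The median log2 fold change of the list was -0.64. The -1.62 of SLC16A9 and the -1.53 of PDZK1 lie within the range of these 4, which are the largest falls of the list. Both lie below the list median and below every marker not called, of which AMN was the lowest (-1.15).

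**Figure D4:**
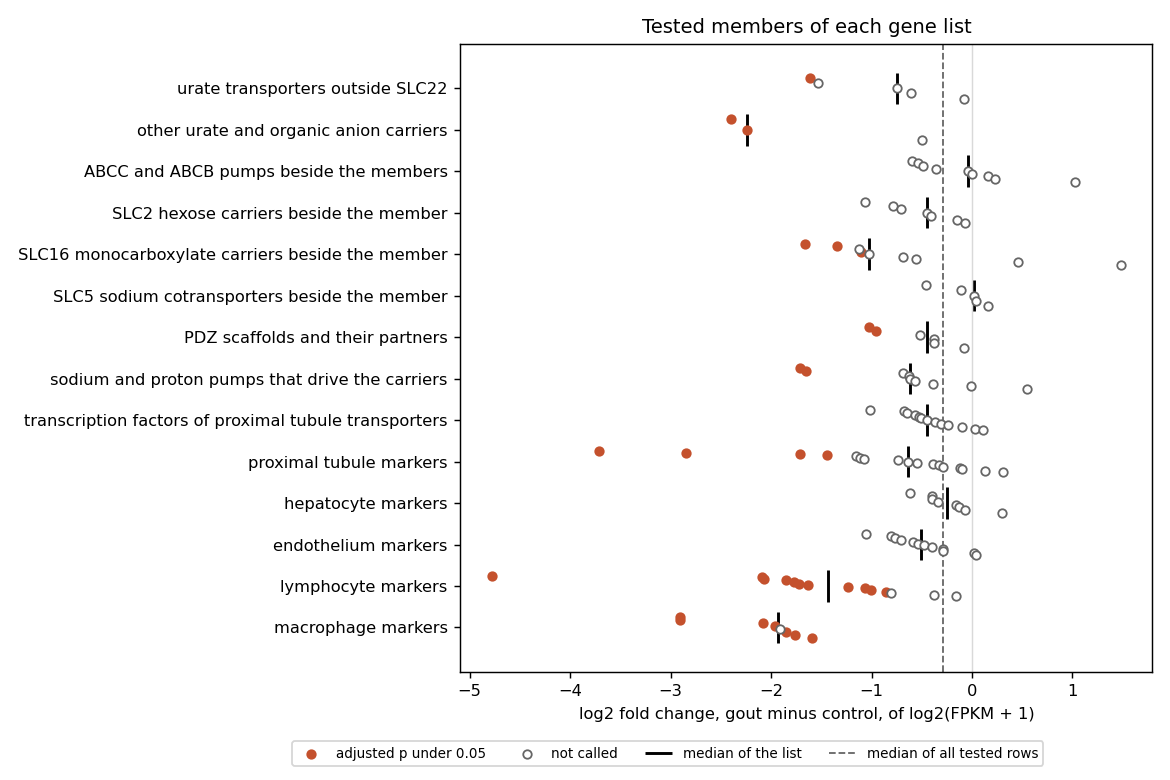
Log2 fold change of each tested gene, gout minus control on the log2(FPKM + 1) scale, in the urate transporters and 13 other lists; filled red points passed limma with adjusted p under 0.05, black bars are list medians, and the dashed line is the median of all tested rows at -0.29. The medians of the ABCC and ABCB pumps, the SLC5 relatives and the hepatocyte markers lie right of that line, and those of all other lists shown lie left of it.

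Among markers of other cells, most of those of lymphocytes and macrophages were called lower in gout. Of 14 tested lymphocyte markers 11 fell (6.29% of all rows were called lower) and 7 were called lower after quantile normalization (2.0% of all rows), led by CD79B, CD2 and JCHAIN, and the summed FPKM of the 17 markers with a row ran from 158 to 646 in control and from 31.2 to 207 in gout libraries. Of 8 tested macrophage markers 7 fell, led by CTSS, LAPTM5 and MPEG1, with sums of 1022 to 5007 in control and 149 to 1501 in gout. After quantile normalization 3 were called lower, CTSS, MPEG1 and CD74, while LAPTM5 was not (limma adjusted p = 0.0510). The part of lymphocytes and macrophages in the differences above was not tested. Of 8 tested hepatocyte markers 0 were called, with F2 at the smallest p (limma adjusted p = 0.223), and ALB lay under the filter. Of 2 tested enterocyte markers 0 were called (SI, adjusted p = 0.0999), of 12 endothelium markers 0 (TEK, 0.0506), and of 5 erythrocyte and thrombocyte markers 1 fell, RHAG (0.0444, and 0.160 after quantile normalization).

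The genes whose profiles over the 11 libraries lay nearest to each tested member were found by the root mean square difference of standardised log2(FPKM + 1) values among 9282 rows with a symbol. This is a description of the closest of many rows. For PDZK1 they were ACOX2, a peroxisomal oxidase of bile acid synthesis (0.170 SD units), and RHAG, an ammonia channel protein (0.250), against a median of 1.15 over all rows. For SLC16A9 they were KCTD6 (0.297) and RAB29 (0.331), for SLC2A9 DAGLB (0.294) and WIPF3 (0.331), for ABCC2 the growth factor receptor FGFR4 (0.370) and PGPEP1 (0.401), and for SLC5A8 ARHGAP24 (0.397) and RPP38 (0.428). Among the members themselves SLC16A9 and PDZK1 were the closest pair (0.587), and ABCC2 was far from each of the others (1.26 to 1.65). RHAG was measured at 11.3 ± 3.46 FPKM in control and 5.29 ± 1.74 FPKM in gout. It was the single row called among these 10 (log2 fold change -0.95, limma adjusted p = 0.0444), beside 6.99% of all tested rows. After quantile normalization it was not called (0.160). The 10 were picked by profiles that include the group difference, so this call says nothing further about PDZK1.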

How the data were processed

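FPKM values per gene had been made by the authors, per the file headers, with HISAT and StringTie named in the submitters' processing notes; versions and the genome build are not given in the sources used here, so no coordinates are printed. Each of the 11 columns was matched to a gosling by title. Label text on oxygen in water tanks and on adipose tissue was left unused. Low values of library pairs shared at most 0.570% of ratios (55 pairs), so no fragment counts were recovered and depth is unknown. Of 19275 rows, the 12252 reaching 1 FPKM in 5 or more libraries were tested on log2(FPKM + 1) with limma 3.58.1 in R 4.3.3 (trend, two-sided, Benjamini-Hochberg), after a check on simulated data. Single values were tested by exact permutation over 462 splits. The members and lists were chosen with earlier results of these data known. In the lists, symbols found on more than 1 row were read from the most abundant. Named genes were all member rows, the 2 rows nearest to each tested member, and in each list up to 3 called members or the one with the smallest p. HNF4A, ALB, AQP1, CLDN5, FGB, ITGB3, SLC5A6, SLC16A5, SLC16A6, rows under LOC numbers and adjoining genes were named after their values were seen. Some genes that this rule or the lists would name are not reported here. P-values set a difference between group means against the spread between the goslings sampled. Tables and figures used Python 3.11.15 and matplotlib 3.10.9.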

Additional observations from a re-analysis of the deposited data

Results flagged for a closer look

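In LOC106049164, described as ABCG2-like, gout replicate 5 lay far from the other gout libraries, at 8.42 FPKM with the next at 2.63. In LOC106030304, described as SLC2A9-like, control replicate 4 was the single library above 0, at 0.0349 FPKM. With every other library at 0, any value above 0 meets the criterion there, so LOC106030304 is given as a value only. On the log2(FPKM + 1) scale 25 groups of values were examined, and chance meets the criterion in about 1 of 20 groups. No group of the 7 members' own rows met it, ABCC2 in gout included.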

How the results depend on the processing

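Of the 5 tested members 1 was called; 0 were called with pseudocounts of 0.1 or 0.01, no filter, any other scaling of the libraries (quantile, upper quartile, TPM) or the replicate block, and 0 to 2 with single goslings left out. Rows called in all numbered 856 (85 higher, 771 lower), against 450 with a filter at 5 FPKM, 471 after quantile normalization (226 higher, 245 lower), 522 with upper quartile scaling (181 higher, 341 lower), 712 on the TPM scale (141 higher, 571 lower) and 316 to 1466 with single goslings left out (316 without gout replicate 2, 1466 without gout replicate 5). The replicate block, which takes control replicate 6 out of the comparison, gave 671 rows and SLC16A9 at limma adjusted p = 0.0945; same-numbered libraries deviated together by r = -0.0860 to 0.241, so the numbers are not taken to pair the goslings. ABCC2 changed sign after quantile normalization (0.15), upper quartile scaling (0.16), on the TPM scale (0.0376) and with the block (0.0326), and ranged from -0.74 to 0.29 with single goslings left out. LOC106045816 changed sign after quantile normalization (0.0420) and upper quartile scaling (0.0689), and ranged from -0.73 to 0.18 with single goslings left out. SLC2A9 relative to the tubule markers changed sign with a pseudocount of 0.1 (-0.0117). The unadjusted permutation p of ABCC4 rose past 0.05 after quantile normalization (exact p = 0.0736), and that of ABCG2 after quantile normalization (exact p = 0.123) and upper quartile scaling (exact p = 0.0671). The cause of these changes was not tested, and the depth behind the values is unknown.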

Other observations

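Ratios between 2 members within a library do not change with the scaling of that library. Over the 10 pairs of the 5 tested members, the ratio of ABCC2 to SLC16A9 differed most, with a mean log2 ratio of 0.03 ± 0.700 in control and 1.92 ± 2.02 in gout (SD over 6 and 5 libraries); the exact permutation p was 0.0368, and 0.368 adjusted over the 10 pairs. PDZK1 and SLC16A9 had a mean log2 ratio of 2.43 ± 0.447 in control and 2.86 ± 1.39 in gout (exact permutation p = 0.600, and 0.667 adjusted). No pair passed the adjustment.

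Gout replicate 4 was also high for SLC16A6, a ketone body carrier in zebrafish liver, with 37.7 FPKM there, 4.07 times the next library. SLC16A6 stood at 1.05 to 9.26 FPKM in the other gout libraries. SLC5A6 had 21.6 FPKM in gout replicate 4 and at most 9.47 in every other library. SLC16A5 had 65.6 and 48.3 FPKM in gout replicates 1 and 4, 4.78 to 16.8 in the other gout libraries and 3.41 to 7.80 in control (limma adjusted p = 0.112).

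By RefSeq's gene order for the Taihu goose assembly, PDZK1 adjoins GPR89B, a Golgi pH regulator, which stood at 55.1 ± 25.3 FPKM in control and 24.1 ± 21.4 FPKM in gout (limma adjusted p = 0.0752). ABCC4 adjoins CLDN10, a paracellular ion channel protein, at 47.6 ± 13.1 and 24.5 ± 22.3 FPKM (adjusted p = 0.0728). ABCG2 is followed by PKD2 and SPP1, and PKD2 lay under the filter while SPP1, a secreted phosphoprotein, had 442 ± 157 and 1696 ± 1217 FPKM (limma adjusted p = 0.155).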
